A study of Mus musculus with 18 samples.

Results

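The genes described here mark group 3 innate lymphoid cells (ILC3) and type 17 lymphocytes. They are Rora, Il22, Il17a, Il17f, Il23r, Ccr6, Ncr1, Il7r and Il1r1, 9 of the 22180 genes measured on the arrays. A gene was included when the platform annotation gave a probe set exactly that symbol, and each of the 9 had 1 such probe set. Their signals were compared in the ileum of transplanted mice across 4 groups.

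ILC3 and T helper 17 cells both respond to the interleukins IL-23 and IL-1 made by myeloid cells. They answer with IL-22 and IL-17, which act on the gut epithelium and induce antimicrobial lectins, oxidant enzymes and chemokines. In mouse allogeneic transplantation, ILC3 of the recipient are known as a source of IL-22 that acts on intestinal stem cells, and their loss accompanies graft-versus-host disease of the gut.

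Every mouse was a B10.BR recipient aged 8 to 12 weeks that received 11 Gy of total body irradiation on the day before transplantation, followed by 5000000 T cell-depleted marrow cells from C57Bl/6 donors. In the T cell groups 2000000 purified donor T cells were added, which produces graft-versus-host disease, and the marrow-only groups carried the same irradiation and allogeneic marrow without them. Indole-3-carboxaldehyde (ICA), a tryptophan-derived indole and ligand of the aryl hydrocarbon receptor, was given at 150 mg/kg by daily gavage. Its vehicle was 20% DMSO, 40% PEG400 and 2% citric acid. Treatment began the day before transplantation and the ileum was taken on day 21. The groups were marrow only with vehicle (n = 4), marrow only with ICA (n = 5), T cells with vehicle (n = 4) and T cells with ICA (n = 5), each mouse a biological replicate with 1 array. No group without irradiation and transplantation was analysed here, so each value is relative to another transplanted group. Cells of recipient and donor origin cannot be told apart on these arrays.

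The deposited values are log2 signals, and array medians lay between 6.47 and 6.51. The correlation between any 2 arrays over all genes was 0.978 to 0.993. Of the 18 arrays, 3 are called here the arrays that stood apart, and results that rest on them are given with and without them. They are T cell ICA mouse 1, mouse 1 of the marrow-only ICA group and mouse 3 of the marrow-only vehicle group. Each had the lowest mean correlation with the other arrays of its group (0.9846, 0.9837 and 0.9892). That of marrow-only vehicle mouse 3 was above those of marrow-only ICA mice 2 and 3 (0.9866 and 0.9871), which are not among the 3. It was also above those of T cell ICA mice 2 and 5 (0.9874 and 0.9889) and T cell vehicle mice 1 and 2 (0.9891 and 0.989). These are not among the 3 either, although T cell vehicle mouse 2 was the lowest of its group. No cutoff is given for this choice. The labelled tissue was checked against 7 markers of ileal epithelium, whose mean signal was 12.1 to 12.4 in every mouse. Whole ileum was profiled, so fewer cells of a type and less RNA per cell cannot be told apart.

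A set of 1390 olfactory and vomeronasal receptor genes, which the ileum is not known to use, served as a gauge of background. Their median signal was 4.38, with a 5th percentile of 2.93 and a 95th percentile of 6.04. Il22 had a mean signal over the 18 arrays that 93.0% of these genes reached or exceeded, so its probe set was within the background. Il23r was reached or exceeded by 32.0% of them and Il17a by 19.2%. For Ccr6, Ncr1 and Il17f the share was 11.0%, 7.6% and 6.8%. Only Rora (0.4%), Il7r (0.4%) and Il1r1 (0.1%) were clear of nearly all of these genes. In the T cell mice alone Il23r ranged from 4.14 to 4.93 with a median of 4.38, at the median of the receptor genes. In marrow-only mice its median was 5.27. A difference in a probe set close to background can understate the difference in RNA, but whether it did so here was not tested. Probe sets differ in affinity, so levels were compared between mice and not between genes.

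The promoters of Il23r, Ccr6 and Ncr1 are shown because these are the 3 of the 9 genes that passed the test between T cell and marrow-only mice, and because they share a sequence. The windows run from 250 bases before to 50 bases after the RefSeq transcription start (GRCm38.p6), written 5′ to 3′ on the strand of the gene. Capitals mark AGGTCA, the core of the site read by the product of Rora, or TGACCT where the core site lies on the opposite strand. Il23r lies at chr6:67491806-67492105 on the minus strand, Ccr6 at chr17:8235793-8236092 on the plus strand and Ncr1 at chr7:4337465-4337764 on the plus strand. Ccr6 and Ncr1 each have a 2nd window, which is not shown.
Il23r: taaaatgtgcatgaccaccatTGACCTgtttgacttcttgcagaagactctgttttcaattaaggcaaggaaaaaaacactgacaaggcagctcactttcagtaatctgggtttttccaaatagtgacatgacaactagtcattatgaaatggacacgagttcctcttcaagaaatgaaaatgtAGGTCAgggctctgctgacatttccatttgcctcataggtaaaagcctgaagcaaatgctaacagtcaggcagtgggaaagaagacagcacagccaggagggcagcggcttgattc
Ccr6: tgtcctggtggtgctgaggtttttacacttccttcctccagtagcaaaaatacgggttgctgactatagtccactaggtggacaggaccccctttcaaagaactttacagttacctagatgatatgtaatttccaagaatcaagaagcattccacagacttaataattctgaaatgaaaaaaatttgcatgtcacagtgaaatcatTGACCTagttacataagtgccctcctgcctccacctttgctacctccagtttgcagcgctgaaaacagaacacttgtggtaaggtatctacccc
Ncr1: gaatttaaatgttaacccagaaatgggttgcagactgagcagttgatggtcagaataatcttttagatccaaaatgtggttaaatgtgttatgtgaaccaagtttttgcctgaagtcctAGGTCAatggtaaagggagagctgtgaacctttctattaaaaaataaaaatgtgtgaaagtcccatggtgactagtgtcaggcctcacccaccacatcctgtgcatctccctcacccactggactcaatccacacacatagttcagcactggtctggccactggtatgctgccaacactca
In Il23r the core site lay 66 to 61 bases before the start on the strand of the gene, and another lay 229 to 224 bases before it on the opposite strand. The Ccr6 core site was on the opposite strand at 44 to 39 bases before the start, and that of Ncr1 on the strand of the gene at 131 to 126 bases before it. Among the 9 genes, AGGTCA was found on either strand in the windows of 5 (Il17a, Il17f, Il23r, Ccr6 and Ncr1), against 18.1% of 27025 genes with a window. TAGGTCA, a longer form with the preceding T that was chosen after the windows were seen and that overlaps AGGTCA by construction, was found in Il23r, Ccr6 and Ncr1 and in 3.0% of all genes. GCGTG, the core read by the aryl hydrocarbon receptor with its partner, was found in Rora and Il1r1 and in 35.2% of genes. TTCNNNGAA, read by STAT proteins, was found in Ccr6 and Il7r and in 9.6% of genes. All motifs were searched on both strands. These matches describe letters in a window and not binding.

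With donor T cells, Il23r, Ncr1 and Ccr6 fell in the ileum, and the other 6 genes did not pass the test. The test was limma on the log2 signals of all 4 groups, with p-values adjusted by Benjamini-Hochberg over all 22180 genes and a threshold of 0.05. Averaged over vehicle and ICA, 3 of the 9 genes were lower and 0 higher, where 3.62% of all genes were lower and 3.58% higher. The median difference was -0.17 over the 9 genes and -0.0013 over all genes. Under vehicle 1 of the 9 was lower (0.681% of all genes) and 0 higher (0.794%), and under ICA 1 was lower (2.07%) and 0 higher (1.05%). At an unadjusted p under 0.05, 5 genes were lower and 1 higher in the average, where 9.79% of all genes were lower and 10.1% higher. Under vehicle 3 of the 9 were lower (5.42% of all genes) and 2 higher (7.58%), and under ICA 4 were lower (9.19%) and 0 higher (7.43%). The 1390 receptor genes used as a gauge of background also leaned lower under vehicle. At the same unadjusted p, 95 of them were lower and 11 higher, with a median difference of -0.075. Under ICA 34 were lower and 54 higher (median 0.019), and in the average 68 were lower and 32 higher (median -0.025). Vehicle and ICA comparisons use different mice, whereas the average uses all 18 and is no separate evidence.

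**Figure D1:**
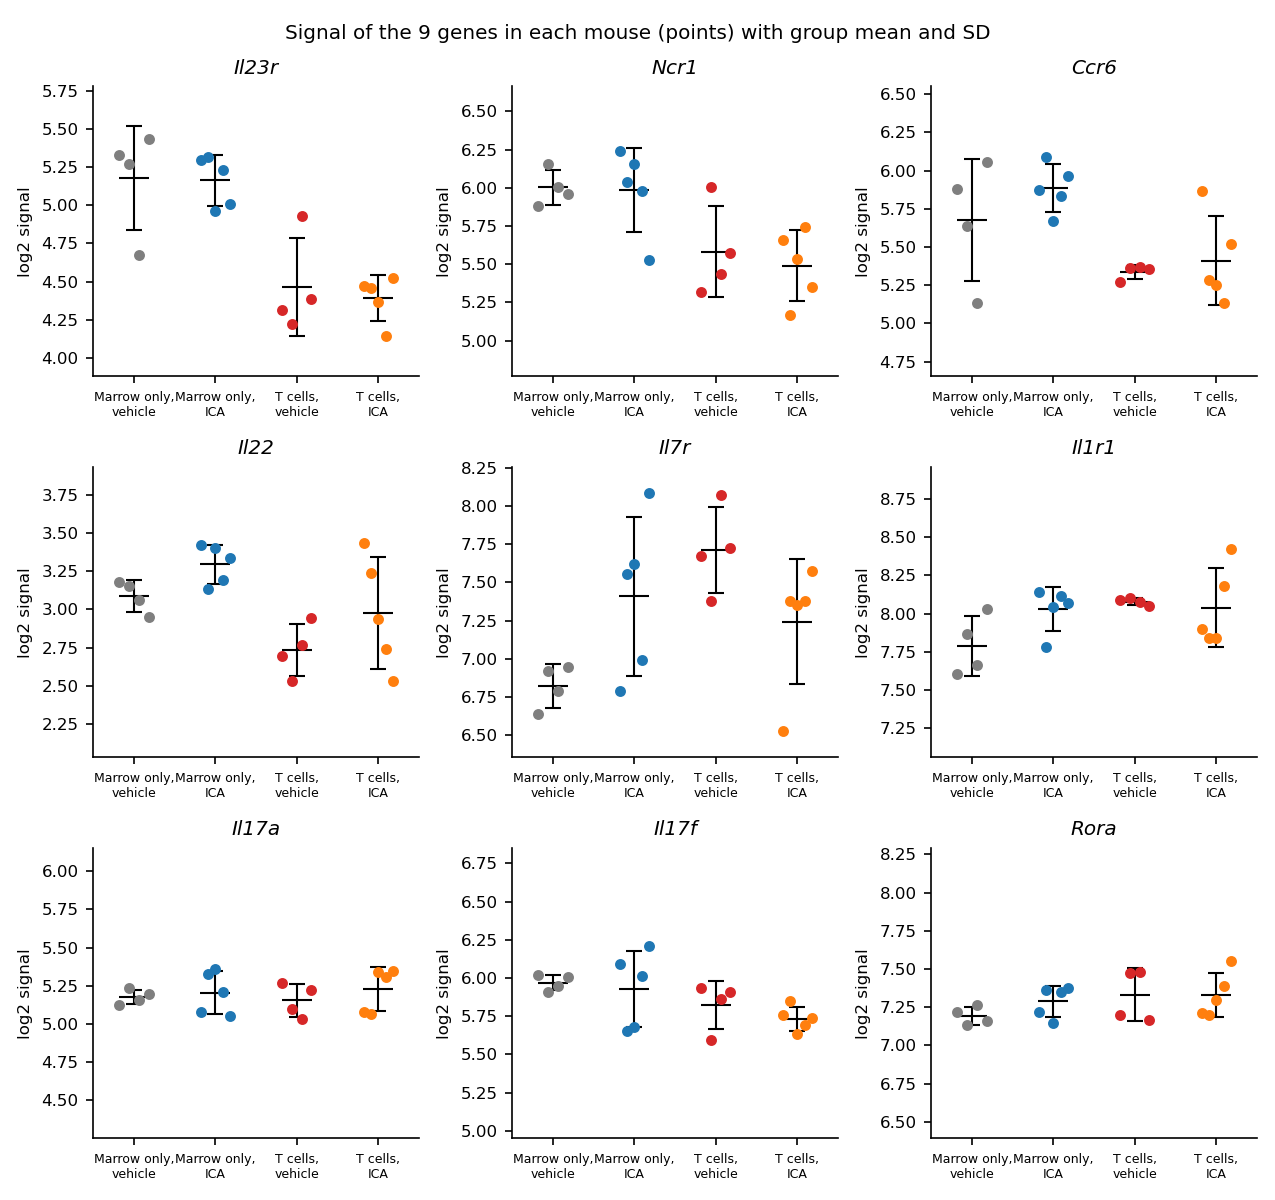
Log2 signal of each of the 9 genes (vertical axis, each panel on its own range of equal span) in every mouse of the 4 groups (points), with the group mean and SD (bars). For Il23r, 8 of the 9 T cell mice lie below every marrow-only mouse, and for Il7r the marrow-only vehicle mice lie below all T cell vehicle mice.

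Il23r encodes the subunit of the IL-23 receptor that is specific to that cytokine. Its signal was 5.33, 5.27, 4.67 and 5.43 in marrow-only vehicle mice 1 to 4 and 5.30, 5.31, 4.96, 5.23 and 5.01 in marrow-only ICA mice 1 to 5. With donor T cells it was 4.32, 4.22, 4.93 and 4.38 in vehicle mice 1 to 4 and 4.47, 4.46, 4.36, 4.14 and 4.52 in ICA mice 1 to 5. Of the 9 T cell mice, 8 were below every marrow-only mouse, and the exception was T cell vehicle mouse 3. Under ICA the groups did not overlap, which was true in the same direction of 2.17% of all genes, and in the other direction of 1.16% of all genes and 0 of the 9. Il23r fell by 0.71 ± 0.16 (SE) on the log2 scale under vehicle, or 1.64-fold (limma adjusted p = 0.0315). Under ICA it fell by 0.77 ± 0.15, or 1.71-fold (limma adjusted p = 0.00495). Averaged over treatments the difference was -0.74 ± 0.11, or 1.67-fold lower, with a 95% interval of -0.97 to -0.51 (limma adjusted p = 0.000275). In the exact permutation test, two-sided, p was 0.0571 under vehicle and 0.00794 under ICA, the smallest that 5 against 5 mice can give. Without any of marrow-only vehicle mice 1, 2 or 4 or T cell vehicle mice 1, 2 or 4, the vehicle difference missed the threshold (adjusted p up to 0.123), as it did with only the vehicle groups in the model (adjusted p = 0.0607) or with mouse number as a replicate block (adjusted p = 0.0558). The ICA and average differences passed whichever single mouse was left out. The mean signal of 13 circadian clock genes was 7.99 to 8.47 in marrow-only mice and 8.33 to 8.73 in T cell mice, and its correlation with Il23r was -0.69 over the 18 arrays and -0.23 after subtracting group means. With Ccr6 the same correlations were -0.74 and -0.44, with Il22 -0.73 and -0.29 and with Ncr1 -0.52 and 0.01. The mean pools clock genes that moved in both directions, with 7 risen and 3 fallen in the average over treatments. The part of the clock in the differences of these genes was not tested.

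Ncr1 encodes NKp46, an activating receptor of natural killer cells that also marks a subset of ILC3. Signals were 5.88, 6.16, 6.01 and 5.96 in marrow-only vehicle mice and 6.24, 6.04, 6.16, 5.98 and 5.53 in marrow-only ICA mice. In T cell mice they were 5.32, 6.01, 5.44 and 5.57 with vehicle and 5.66, 5.17, 5.53, 5.75 and 5.35 with ICA. The groups overlapped through marrow-only ICA mouse 5, which was low, and T cell vehicle mouse 2, which was high. Ncr1 differed by -0.42 ± 0.16 under vehicle (limma adjusted p = 0.223) and by -0.50 ± 0.14 under ICA (limma adjusted p = 0.0616), neither past the threshold. The ICA difference passed without marrow-only ICA mouse 5 (-0.61, adjusted p = 0.0206) or without T cell vehicle mouse 2 (adjusted p = 0.0399). Averaged over treatments it fell by 0.46 ± 0.11, or 1.37-fold (95% interval -0.68 to -0.24, limma adjusted p = 0.0105). This call was kept whichever single mouse was left out (highest adjusted p = 0.0282).

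Ncr1 was set beside 10 other markers of natural killer cells and ILC1. Of these, 3 rose in T cell mice in the average over treatments and 0 fell, with a median difference of 0.28. Eomes, a transcription factor of natural killer and cytotoxic T cells, rose by 0.61 ± 0.11 (limma adjusted p = 0.00165), the chemokine gene Xcl1 rose by 0.82 ± 0.18 (limma adjusted p = 0.00667) and the perforin gene Prf1 by 0.42 ± 0.13 (limma adjusted p = 0.0488). Cytotoxic T cells use all 3 of these genes as well. Klrb1c, which encodes NK1.1, and Klri2 had differences of -0.10 (limma adjusted p = 0.739) and -0.04 (limma adjusted p = 0.875). Over the 18 arrays the Pearson correlation of Ncr1 with the mean of these 10 markers was -0.58, and -0.32 after subtracting group means. The part of natural killer cells and ILC1 in the Ncr1 difference was not tested.

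Ccr6, a receptor for the chemokine CCL20, is carried by lymphoid tissue inducer-type ILC3, T helper 17 cells and B cells. It read 5.88, 5.64, 5.13 and 6.05 in marrow-only vehicle mice and 5.87, 6.09, 5.67, 5.83 and 5.96 in marrow-only ICA mice. T cell mice had 5.27, 5.36, 5.37 and 5.36 with vehicle and 5.87, 5.28, 5.25, 5.14 and 5.52 with ICA. T cell and marrow-only mice overlapped through marrow-only vehicle mouse 3, the lowest of all 18, and T cell ICA mouse 1, the highest of the T cell mice. These are among the 3 arrays that stood apart. Ccr6 differed by -0.34 ± 0.17 under vehicle (limma adjusted p = 0.402) and by -0.48 ± 0.15 under ICA (limma adjusted p = 0.0903). In the average it fell by 0.41 ± 0.11, or 1.33-fold (95% interval -0.64 to -0.17, limma adjusted p = 0.0299). With those 3 arrays omitted it passed under vehicle and under ICA, at -0.52 (adjusted p = 0.0272) and -0.59 (adjusted p = 0.00333), and was -0.56 in the average (adjusted p = 0.000227). With all arrays the ICA difference passed when only marrow-only vehicle mouse 3 (adjusted p = 0.0366) or T cell ICA mouse 1 (adjusted p = 0.0232) was omitted. The average missed the threshold without any 1 of 10 mice (adjusted p up to 0.0743). These were marrow-only vehicle mice 1, 2 and 4, marrow-only ICA mouse 5, T cell vehicle mice 1, 3 and 4 and T cell ICA mice 2, 3 and 4.

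B cell markers were also lower in T cell mice. Of 7 B cell markers, 5 fell in the average over treatments and 0 rose, with a median difference of -0.67. Ms4a1, which encodes CD20, fell by 0.71 ± 0.16 (limma adjusted p = 0.0065). The mean of the 7 was 5.96 to 6.25 in marrow-only vehicle mice, 5.61 to 6.85 in marrow-only ICA mice, 5.54 to 5.65 in T cell vehicle mice and 5.40 to 5.97 in T cell ICA mice. Its correlation with Ccr6 over the 18 arrays was 0.79, and 0.56 after subtracting group means, and the lowest mouse was the same in 3 of the 4 groups. For Il23r, which B cells are not known for, the same correlations were 0.78 and 0.35. The part of B cells in the Ccr6 difference was not tested. Ccr6 and Il23r correlated at 0.79 with each other and at 0.66 after subtracting group means.

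**Figure D2:**
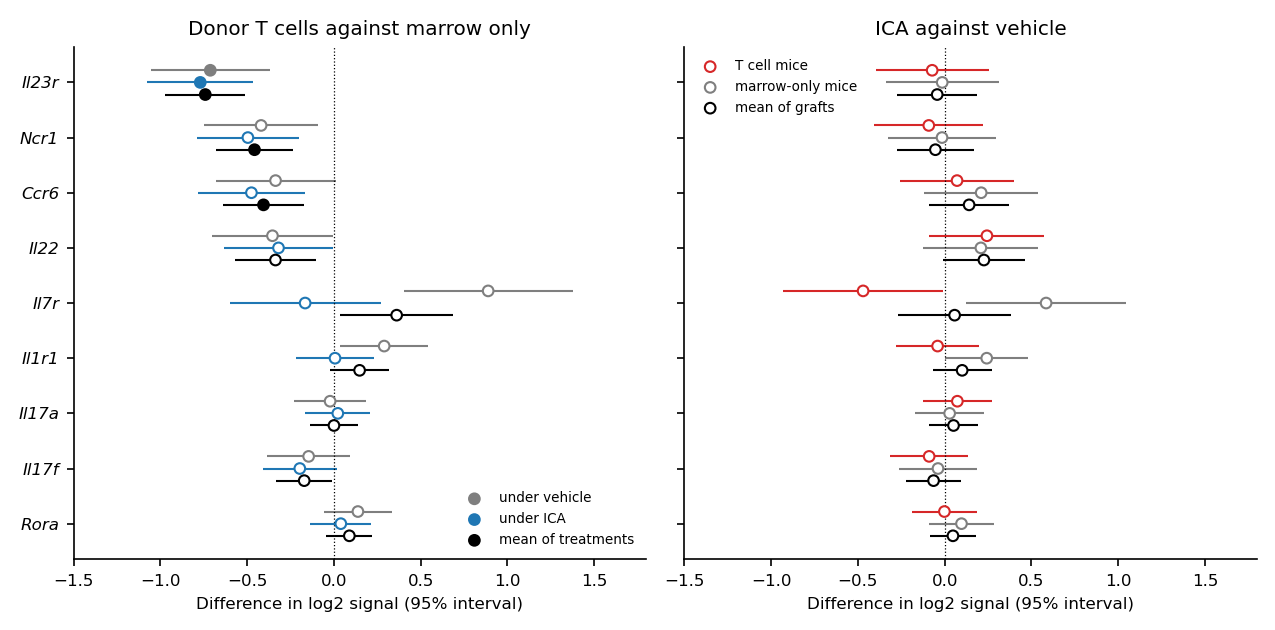
Difference in log2 signal (horizontal axis, point with 95% interval) of each gene for T cell against marrow-only mice (left) and ICA against vehicle (right). Filled points passed the threshold, and these are Il23r in all 3 comparisons on the left and Ncr1 and Ccr6 in the average over treatments, with none on the right.

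The cytokine genes did not pass the test. Il22 was 3.18, 3.15, 3.06 and 2.95 in marrow-only vehicle mice and 3.42, 3.13, 3.40, 3.19 and 3.33 in marrow-only ICA mice. In T cell mice it was 2.69, 2.53, 2.77 and 2.94 with vehicle and 3.43, 3.24, 2.94, 2.74 and 2.53 with ICA. All T cell vehicle mice were below all marrow-only vehicle mice, with 2.94 and 2.95 as the closest pair, whereas the ICA groups overlapped through T cell mice 1 and 2. Over both treatments 7 of the 9 T cell mice were below every marrow-only mouse and 1 was above all of them. Under vehicle, 4.21% of all genes separated the groups in that direction. The Il22 difference was -0.35 ± 0.17 under vehicle (limma adjusted p = 0.373), -0.32 ± 0.15 under ICA (limma adjusted p = 0.288) and -0.34 ± 0.11 in the average (limma adjusted p = 0.0778). Without T cell ICA mouse 1, the highest of that group, the average difference was -0.39 (adjusted p = 0.0185), and without the 3 arrays that stood apart it was -0.38 (adjusted p = 0.0387). Mice carry a near-identical copy of Il22, listed as Iltifb, and the platform has a probe set for each. Iltifb ranged from 2.51 to 3.48, also within the range of the receptor genes, and differed by -0.0002 ± 0.12 in the average. The difference between the copies was not tested, and which of them either probe set reads is uncertain.

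Il17a, the signature cytokine of type 17 lymphocytes, had group means of 5.18 ± 0.05 (SD, n = 4) in marrow-only vehicle mice, 5.21 ± 0.14 (SD, n = 5) in marrow-only ICA mice, 5.16 ± 0.11 (SD, n = 4) in T cell vehicle mice and 5.23 ± 0.14 (SD, n = 5) in T cell ICA mice. All 18 values lay between 5.03 and 5.36, and the groups overlapped throughout. The average difference with T cells was 0.00 (95% interval -0.14 to 0.14, limma adjusted p = 0.999). Il17f, which encodes its close relative and dimer partner, had means of 5.97 ± 0.05, 5.93 ± 0.25, 5.82 ± 0.16 and 5.73 ± 0.08 (SD) in the same order. It ranged from 5.59 to 6.21 over all mice, and differed by -0.17 ± 0.08 in the average (limma adjusted p = 0.214).

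Il7r, the receptor for IL-7 that sustains innate lymphoid cells and resting T cells, had its difference under vehicle in the opposite direction to Il23r. Its signal was 6.64, 6.92, 6.79 and 6.95 in marrow-only vehicle mice and 6.79, 7.55, 7.62, 6.99 and 8.08 in marrow-only ICA mice. In T cell mice it was 7.67, 7.38, 8.07 and 7.73 with vehicle and 6.53, 7.38, 7.35, 7.38 and 7.58 with ICA. Marrow-only vehicle mice were all below the T cell vehicle mice, as for 6.33% of all genes in that direction, whereas marrow-only ICA mice spread over the range of both. The difference with T cells was 0.89 ± 0.23 under vehicle, or 1.85-fold, which missed the threshold (limma adjusted p = 0.0603, exact permutation p = 0.0286 two-sided, the smallest for 4 against 4). It was -0.17 ± 0.21 under ICA (limma adjusted p = 0.765) and 0.36 ± 0.16 in the average (limma adjusted p = 0.193). With only the vehicle groups in the model, where Il23r missed the threshold, the Il7r difference passed (adjusted p = 0.00449), and with mouse number as a replicate block it also passed (adjusted p = 0.0113). It passed without the 3 arrays that stood apart as well, at 0.88 (adjusted p = 0.0132), and without marrow-only ICA mouse 1 (adjusted p = 0.0268) or 5 (adjusted p = 0.0362) or T cell ICA mouse 1 (adjusted p = 0.0248). Without T cell ICA mouse 1 the average passed too, at 0.45 (adjusted p = 0.0489).

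Il7r was set beside 9 T cell markers. Of these, 5 rose in the average over treatments and 0 fell, with a median difference of 0.44. Cd3e, a chain of the T cell receptor complex, rose by 1.01 ± 0.21 (limma adjusted p = 0.0053). Under vehicle alone 4 rose and 0 fell, and under ICA alone 2 rose and 1 fell. Under ICA the CD8 genes Cd8a and Cd8b1 rose by 1.98 ± 0.22 and 2.06 ± 0.18 (limma adjusted p = 5.17e-05 and 4.83e-06), whereas Cd4 fell by 0.71 ± 0.19 (limma adjusted p = 0.0448). The mean of the 9 markers was 6.61 to 7.09 in marrow-only vehicle mice, 6.68 to 7.73 in marrow-only ICA mice, 7.51 to 8.28 in T cell vehicle mice and 7.49 to 8.14 in T cell ICA mice. Its correlation with Il7r was 0.69 over the 18 arrays and 0.73 after subtracting group means. Il7r was not particular to T cell markers in this. The same correlations were 0.69 and 0.65 with natural killer cell and ILC1 markers and 0.69 and 0.68 with myeloid markers. They were 0.66 and 0.73 with 13 other products and receptors of ILC3 and type 17 cells. Marrow-only ICA mice 2, 3 and 5, the high mice for Il7r in that group, had T cell marker means of 7.73, 7.50 and 7.63, against 6.68 and 7.002 in mice 1 and 4. T cell ICA mouse 1, the lowest of all 18 for Il7r, had the lowest T cell marker mean of the T cell mice. The T cell mice did not all keep this order. T cell vehicle mouse 2 had the lowest Il7r of its group with the 2nd highest marker mean (8.06), and T cell ICA mouse 5 had the highest Il7r of its group with a marker mean of 7.91 against 8.14 in mouse 2. Under ICA the marker mean was 7.90 ± 0.25 (SD, n = 5) with T cells and 7.31 ± 0.45 (SD, n = 5) without, while Il7r differed by -0.17. The part of T cells, or of the other cell types, in the Il7r values was not tested.

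**Figure D3:**
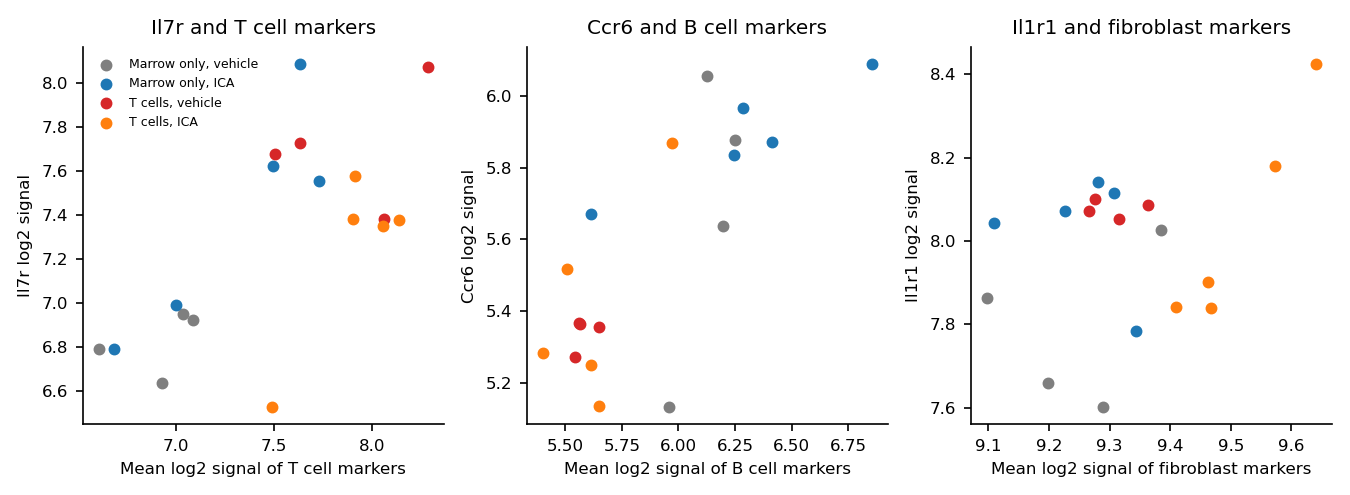
Log2 signal of Il7r, Ccr6 and Il1r1 (vertical axes) against the mean log2 signal of markers of T cells, B cells and fibroblasts (horizontal axes), 1 point per mouse coloured by group. The Pearson correlations over the 18 arrays are 0.69, 0.79 and 0.38. Il7r also correlated at 0.69 with markers of myeloid cells and with those of natural killer cells and ILC1, and Il1r1 at 0.39 with ILC2 markers.

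Il1r1 encodes the signalling receptor for IL-1, carried by ILC3, type 17 T cells and many stromal cells. Its signal was 7.60, 7.86, 7.66 and 8.03 in marrow-only vehicle mice and 8.14, 7.78, 8.04, 8.12 and 8.07 in marrow-only ICA mice. With T cells it was 8.09, 8.10, 8.07 and 8.05 under vehicle and 7.90, 7.84, 7.84, 8.18 and 8.42 under ICA. The vehicle groups did not overlap, as for 6.33% of all genes in that direction, and marrow-only mouse 4 nearly met the T cell mice. Il1r1 differed by 0.29 ± 0.12 under vehicle (limma adjusted p = 0.289), by 0.01 under ICA (limma adjusted p = 0.986) and by 0.15 in the average (limma adjusted p = 0.334). Of 7 fibroblast markers, 2 rose and 0 fell in the average, and their mean correlated with Il1r1 at 0.38 over the 18 arrays and at 0.41 after subtracting group means. For ILC2 markers the same correlations with Il1r1 were 0.39 and 0.41. Rora, a nuclear receptor that ILC2, ILC3 and T helper 17 cells use and that also acts in the circadian clock, had means of 7.19 ± 0.06, 7.29 ± 0.10, 7.33 ± 0.17 and 7.33 ± 0.15 (SD) in the 4 groups in the order used above. Its 18 values lay between 7.13 and 7.55, and its average difference was 0.09 (95% interval -0.04 to 0.22, limma adjusted p = 0.491).

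ICA was compared with vehicle within each graft, and 0 of the 9 genes passed in T cell mice, in marrow-only mice or in the average over grafts. In T cell mice 0.0135% of all genes passed, in marrow-only mice 0.00451% and in the average 0.0135%. None of the 9 separated the groups in either graft, against 2.89% of all genes in T cell mice and 2.18% in marrow-only mice. The limma p was under 0.05 before adjustment for 1 of the 9 in T cell mice (6.89% of all genes), for 2 in marrow-only mice (7.52%) and for 0 in the average (7.73%), and the exact permutation test gave no p under 0.05. ICA and vehicle differed for Il23r by -0.07 in T cell mice (95% interval -0.40 to 0.26) and by -0.01 in marrow-only mice (95% interval -0.34 to 0.32). For Il22 the average over grafts was 0.23 ± 0.11 (limma adjusted p = 0.661), with 3.296 ± 0.13 (SD, n = 5) against 3.09 ± 0.10 (SD, n = 4) in marrow-only mice and 2.98 ± 0.36 (SD, n = 5) against 2.73 ± 0.17 (SD, n = 4) in T cell mice. These groups overlapped in both grafts.

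Il7r had the widest ICA differences of the 9 genes, of opposite sign in the grafts. It differed by 0.58 ± 0.22 in marrow-only mice (limma unadjusted p = 0.0156, adjusted p = 0.617) and by -0.47 ± 0.22 in T cell mice (limma unadjusted p = 0.0461, adjusted p = 0.72). The difference between these effects was -1.05 ± 0.31 (95% interval -1.71 to -0.40, limma unadjusted p = 0.00302, adjusted p = 0.677), and 0% of all genes passed that test. It was the only one of the 9 with an unadjusted limma p under 0.05 for that difference, where 6.68% of all genes had one. Without T cell ICA mouse 1 the difference in T cell mice was -0.29 (adjusted p = 0.748) and the difference between effects -0.88 (adjusted p = 0.797). Il1r1 differed by 0.24 ± 0.11 with ICA in marrow-only mice (limma adjusted p = 0.661).

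Genes that work with the 9 were read from lists of the pathway. Of 11 measured transcription factors of type 17 cells, 1 rose and 2 fell with T cells in the average over treatments, with a median difference of -0.03. Id2, which all innate lymphoid cells need and which other lymphocytes and epithelium also express, rose by 0.41 ± 0.06 (limma adjusted p = 0.000297). Nfil3, which is needed for the development of innate lymphoid cells and is also driven by the circadian clock, fell by 0.60 ± 0.09 (limma adjusted p = 0.00036). Stat3, which relays IL-23 and IL-22 signals in many cells, fell by 0.19 ± 0.05 (limma adjusted p = 0.0147). Of 13 clock genes, a list that also holds Nfil3, 7 rose and 3 fell. Ahr, the receptor for ICA-type indoles, differed by -0.03 (limma adjusted p = 0.844).

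Cytokines that induce type 17 cells and their receptor partners gave no call, with 0 of 19 risen or fallen (limma) and 3 higher and 2 lower at an unadjusted p under 0.05. Il23a, which encodes the specific subunit of IL-23, differed by -0.06 ± 0.08 (limma adjusted p = 0.762). Of 13 other products and receptors of ILC3 and type 17 cells, 2 rose and 2 fell. Thy1 rose by 0.45 ± 0.13 (limma adjusted p = 0.0339) and Cxcr6 by 0.53 ± 0.16 (limma adjusted p = 0.0466), and T cells express both. Cxcr5 fell by 0.47 ± 0.10 (limma adjusted p = 0.00601) and Gpr183 by 0.27 ± 0.07 (limma adjusted p = 0.024), 2 receptors that position cells within lymphoid tissue and that B cells also carry.

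Of 13 receptors and other family members of IL-17 and IL-22, 2 fell and 0 rose. Il22ra2 encodes the soluble IL-22 binding protein, which dendritic cells secrete and which blocks IL-22. It fell by 0.88 ± 0.10, or 1.84-fold (limma adjusted p = 2.45e-05). Il17re, a receptor subunit for IL-17C on epithelium, fell by 0.35 ± 0.09 (limma adjusted p = 0.0178).

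Some epithelial genes that IL-17 or IL-22 is known to induce were also lower in T cell mice. Of 19 measured, 10 fell with T cells in the average over treatments and 0 rose, with a median difference of -0.26. By sign alone 13 were lower and 6 higher. Under vehicle 12 were lower and 7 higher, of which 9 and 3 had an unadjusted limma p under 0.05. Nfkbiz, which encodes the IL-17-induced coactivator IκBζ, fell by 0.63 ± 0.08 (limma adjusted p = 3.45e-05). The inducible nitric oxide synthase gene Nos2 fell by 1.503 ± 0.21, or 2.83-fold (limma adjusted p = 0.000152), and Zc3h12a, an RNase that limits IL-17 signals, fell by 0.56 ± 0.08 (limma adjusted p = 0.00029). The other 7 that fell were Fut2, Socs3, Reg3a, Duox2, Reg3b, Reg3g and Pigr, with differences from -2.25 for Fut2 to -0.26 for Pigr. Genes that did not pass included the neutrophil attractants Cxcl1 and Cxcl5, the serum amyloid gene Saa3 and the siderophore-binding Lcn2. In that order these differed by -0.07, -0.23, 0.86 and 0.15. Under vehicle alone 4 of the 19 fell and under ICA alone 8, and 0 of 19 passed the limma test of the difference between these (1 higher and 3 lower at an unadjusted p under 0.05). The correlation of the mean of the 19 with Il23r was 0.59 over the 18 arrays and 0.14 after subtracting group means, and with Il22 it was 0.31 and -0.03. Many of these genes also respond to bacteria and to other cytokines, and the part of the 9 genes in their difference was not tested. Of the 7 ileal epithelium markers, 1 fell and 0 rose, with a median difference of -0.01. It was Lyz1, a lysozyme of Paneth cells, which fell by 0.45 ± 0.12 (limma adjusted p = 0.0232). The part of epithelial composition was not tested.

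**Figure D4:**
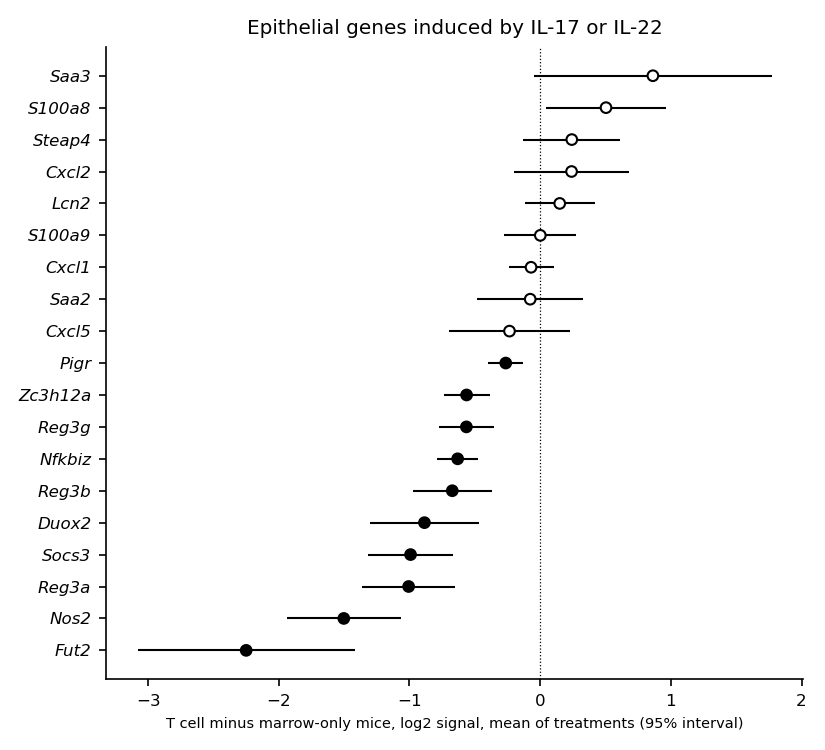
Difference in log2 signal between T cell and marrow-only mice, averaged over treatments (horizontal axis, point with 95% interval), for 19 epithelial genes induced by IL-17 or IL-22. Filled points passed the threshold, and all 10 of these lie below 0, with Fut2 lowest at -2.25.

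Genes most like each of the 9 were found by Pearson correlation over the 18 arrays. Il23r was most like Ceacam20, Rdh16 and B4galt1, each at 0.86, with 0.43 to 0.49 after subtracting group means. For Ncr1 the nearest named genes were Gm11544 (0.815), Il22ra2 (0.802) and Ccdc13 (0.795). Ccr6 was nearest to Mrps12 (0.88), Slc46a1 (0.84) and Xbp1 (0.82). Il7r was nearest to P2ry10, Il18r1 and Gbp5 at 0.90, 0.87 and 0.85, and these stayed at 0.83 to 0.88 after subtracting group means. Il22 was nearest to the immunoglobulin joining chain gene Jchain at 0.86, the same as after subtracting group means. Correlations for Il17a, Il17f, Rora and Il1r1 reached 0.86, 0.82, 0.80 and 0.81. All of these are the highest of 22180 genes over points that share their group differences. Among the 9, Il22 and Rora correlated at -0.585 and Il17a and Il17f at -0.50.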

How the data were processed

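Total RNA of the ileum of 18 mice was hybridised to 1 whole-transcript array each, biotin-labelled per the labels. The deposited values are the authors' log2 signals per probe set; the submitters' processing notes name RMA, Partek and GenomeStudio, with no order or version, and the log base was read from the range of the values. Of 41345 probe sets, 23521 had 1 gene symbol in the platform annotation, 1814 several and 16010 none listed. The probe set with the highest mean stood for a gene, giving 22180 genes. The values were used without further normalization. All 18 arrays entered 1 limma model (version 3.58.1, R 4.3.3) with 4 group means and a trended prior, and differences are between group means or their averages. No covariate was used, because the labels give no batch. Adjusted p-values are Benjamini-Hochberg over all genes with a threshold of 0.05. Exact permutation tests over mice were two-sided. The method was checked on simulated data. The number of arrays limits the precision.

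The 9 genes and the lists were chosen with earlier results of these data known, so counts over them are descriptions. All 9 genes are named, with up to 3 called genes of smallest p per list and comparison; further names were chosen after their values were seen. Alternatives were each mouse left out, the 3 arrays that stood apart left out, other scalings, filters, probe set rules and variance priors, array weights, only the groups compared, and mouse number as a block. Same-numbered mice of different groups showed no sign of deviating together. Of their 25 pairs, 5 had a correlation over 0.1 (median 0.017), against 21 of 96 pairs with different numbers. This check cannot exclude that the numbers follow an unlabelled batch, and the main model did not pair mice by number.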

Additional observations from a re-analysis of the deposited data

Results flagged for a closer look

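Of 36 sets of values (9 genes in 4 groups), 3 had a mouse far from the others of its group by Dixon's criterion, and chance flags about 1 in 20. Il7r in T cell ICA mouse 1 was 6.53, with the nearest other mouse at 7.35. Il1r1 in marrow-only ICA mouse 2 was 7.78, with the nearest at 8.04. Ccr6 in T cell vehicle mouse 1 was 5.27, with the nearest at 5.36 in a group whose values lay unusually close together.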

How the results depend on the processing

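Over 1835 values of the 9 genes under alternatives, 1794 kept their side of the threshold, 21 passed it, 20 lost it and 0 called values reversed. The number of the 9 genes called under vehicle (1 as reported) was 3 with the 3 arrays that stood apart omitted and 2 with array weights. Unadjusted exact permutation gave 3, which were Il22, Il7r and Il1r1 and not Il23r (exact permutation p = 0.0571). Each of these 3 had the smallest p that 4 against 4 mice can give (0.0286). The count was 0 with every probe set tested or above the 25th percentile of mean signal, a filter that leaves out Il23r, Il22 and Il17a. Leaving out 1 mouse gave 0 to 2. Under ICA (1 as reported) it was 2 with those 3 arrays omitted, 2 with array weights and 3 by exact permutation, and 1 to 2 with 1 mouse left out. In the average over treatments (3 as reported) leaving out 1 mouse gave 2 to 5, the 5 without T cell ICA mouse 1. ICA against vehicle in either graft, in the average and in the difference between grafts kept 0 throughout, and the count of 10 lower epithelial genes was 10 in every alternative, run for that count after seeing the data. With mouse number as a replicate block the counts were unchanged at 1, 1 and 3, but under vehicle the called gene was Il7r (0.89, adjusted p = 0.0113) in place of Il23r (-0.71, adjusted p = 0.0558). The same exchange under vehicle came with only the groups compared in the model (Il7r adjusted p = 0.00449, Il23r adjusted p = 0.0607). The average for Ccr6 was lost with every probe set tested (adjusted p = 0.0617), and that for Il22 passed after quantile normalization (adjusted p = 0.0299). The number called over all genes also moved, from 176 higher and 151 lower under vehicle as reported. There 664 were called with the 3 arrays that stood apart omitted, 1074 with array weights and 824 with only the groups compared. With every probe set tested it was 204. Under ICA 233 were higher and 460 lower, against 1515 with those 3 arrays omitted and 1049 with array weights. In the average 795 were higher and 804 lower, against 1937 without T cell ICA mouse 1. The causes were not tested. Signal over background limits Il22, Il23r and Il17a most.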
